A study of Mus musculus with 12 samples.

Results

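The genes described here carry, make, bind, degrade or answer to retinoids. They are 9 of the 31099 genes in the count table, chosen by symbol, and all 9 were among the 18855 genes with enough counts to test. They are Rbp4 and Stra6 (transport and uptake), Aldh1a1, Aldh1a2 and Aldh1a3 (synthesis), Crabp1 and Crabp2 (binding), Cyp26b1 (clearance) and Rarb (receptor). The series measured RNA by sequencing in sorted cells of wild type CD-1 mouse pups aged 3 days, males and females mixed. Each library was made from a pool of pups, and libraries that share a replicate number share the pool. There were 4 groups of 3 libraries. Inguinal white fat gave progenitors sorted for DPP4 and preadipocytes sorted for ICAM1. Fat around the thoracic aorta gave perivascular progenitors and perivascular preadipocytes, whose sort markers the sources used here do not give, so depot and sort gate cannot be told apart.

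Retinol travels in blood bound to the carrier protein RBP4 and can enter cells through the membrane receptor STRA6. Alcohol and short-chain dehydrogenases oxidise it to retinaldehyde, and the ALDH1A enzymes oxidise retinaldehyde irreversibly to retinoic acid. CRABP1 and CRABP2 carry retinoic acid inside the cell, CYP26 enzymes degrade it, and retinoic acid receptors paired with RXR proteins bind direct repeats of a short DNA motif near their target genes. Fat stores retinoids, adipocytes secrete RBP4, and both retinaldehyde and retinoic acid are known to act on fat cell differentiation.

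Rarb is known for a direct repeat of this kind in its own promoter, through which retinoic acid raises its RNA, so the promoters of the 9 genes were read first. RefSeq windows on build GRCm38.p6 (250 bases before to 50 after a start site) were matched for 7 of the 9 genes, in 12 windows. They were searched on both strands for 2 motifs in the same direction, set apart by 1, 2 or 5 bases. A motif was the consensus AGGTCA, its variant AGTTCA, the further variant GGGTCA or the last variant used, GGTTCA. Of the 12 windows 1 held such a repeat, that of Rarb, with a spacer of 5 bases. Rarb was known for such a repeat and both of its motifs were among the 4 searched, so this match is not a test. Over all 32851 windows, 0.0974% held a repeat with that spacer, 0.268% one with 2 bases and 0.222% one with 1 base, while 43.7% held at least 1 of the 4 motifs. The match in Rarb runs from 53 to 37 bases before the start, at chr14:16575513-16575529 on the minus strand. That start lies inside the gene as annotated (16430839 to 16819156), so counts of the gene can include transcripts from other starts. Cyp26a1, the retinoic acid-degrading relative of Cyp26b1, held a repeat with the same spacer in its own window, from 32 to 16 bases before the start on the opposite strand (chr19:37697776-37697792). Of 54 windows of the other retinoid genes matched, 2 held a repeat, the second being that of Bco1, which cleaves carotene to retinaldehyde, with a spacer of 1 base. The 2 repeats with a spacer of 5 bases are shown first as read on their own strand, with the repeated motifs in capitals, and then within the 250 bases before each start (Rarb chr14:16575477-16575726, minus strand, and Cyp26a1 chr19:37697558-37697807, plus strand), with the whole repeat in capitals. A match of letters is a description and not a binding site.
Rarb repeat: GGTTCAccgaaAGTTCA
Cyp26a1 repeat: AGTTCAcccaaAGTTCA
Rarb: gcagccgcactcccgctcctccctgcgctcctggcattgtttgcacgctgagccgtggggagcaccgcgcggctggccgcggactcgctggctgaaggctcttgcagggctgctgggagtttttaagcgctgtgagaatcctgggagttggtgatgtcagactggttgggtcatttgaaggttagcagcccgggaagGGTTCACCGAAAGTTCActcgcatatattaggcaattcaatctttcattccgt
Cyp26a1: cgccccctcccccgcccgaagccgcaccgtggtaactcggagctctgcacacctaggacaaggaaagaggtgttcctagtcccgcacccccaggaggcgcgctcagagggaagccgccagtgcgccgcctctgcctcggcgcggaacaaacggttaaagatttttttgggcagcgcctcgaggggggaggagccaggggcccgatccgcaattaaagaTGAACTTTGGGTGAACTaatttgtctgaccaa
These 2 genes with like repeats had very different counts: Cyp26a1 had at most 4 counts in any library and was not tested, while Rarb had 30 to 289.

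Library totals ran from 15614628 to 25674461 counts. Dpp4 was at 1509.9 ± 72.7 CPM (SD, n = 3, as throughout) in the DPP4+ sort and 89.4 ± 7.57 or lower in the other groups, and Icam1 was at 497 ± 11.1 CPM in the ICAM1+ sort and 96.0 ± 6.03 or lower elsewhere. CPM here is the count scaled to library size with TMM factors. Of the perivascular preadipocytes, library 1 stood apart, with summed adipocyte markers at 4009 CPM against 10241 and 11419 in libraries 2 and 3. Of the perivascular progenitors, library 1 differed most from the other libraries of its group, and of the DPP4+ progenitors, library 2 held 259 CPM of mast cell markers against 57.9 and 49.0. The 14 mesothelial markers summed to 201 to 313 CPM in perivascular progenitors and 102 to 151 in perivascular preadipocytes, against 52.3 to 56.7 for DPP4+ progenitors and 115 to 130.4 for ICAM1+ preadipocytes. Wt1, a defining mesothelial marker, was at 8.55 to 11.3 CPM in perivascular progenitors and at 0 in 2 of 3 libraries of each inguinal group.

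The values of all 9 genes stand first, library by library, and the tests follow. Fold changes are log2 values from edgeR's quasi-likelihood fit over 18855 genes with Benjamini-Hochberg adjusted p-values, and a gene is called at an adjusted p under 0.05. The 4 comparisons between groups share libraries, so their values are given side by side and are not independent.

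**Figure D1:**
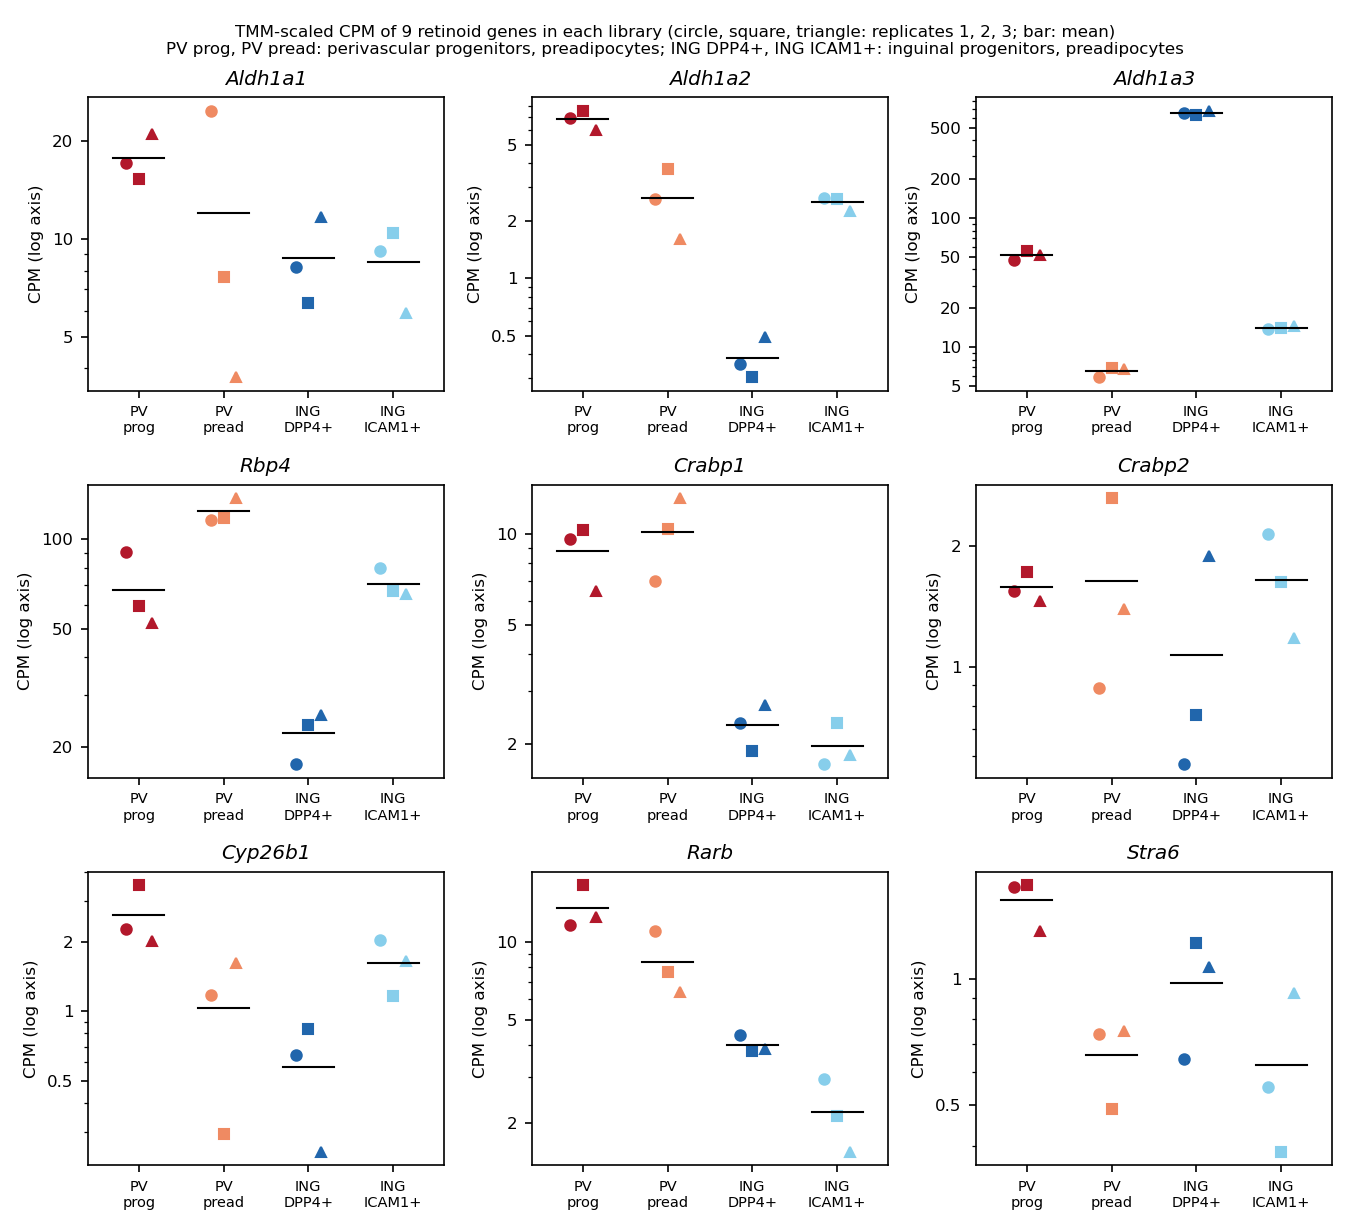
TMM-scaled CPM (log axis) of the 9 genes in the 12 libraries, with each group's mean as a bar; the 4 positions in a panel are perivascular progenitors and preadipocytes, then inguinal DPP4+ progenitors and ICAM1+ preadipocytes. Aldh1a3 lies between 629 and 679 CPM in DPP4+ progenitors and at 55.2 CPM or less in the other 9 libraries, and Aldh1a2 is lowest in the same DPP4+ libraries.

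Of the 3 retinaldehyde dehydrogenase genes, Aldh1a3 and Aldh1a2 gave calls and Aldh1a1 did not. Aldh1a3 (chromosome 7, 66390890 to 66427517 on mm10) was at 649.7, 629 and 679 CPM in the DPP4+ progenitors. It was at 47.7, 55.2 and 52.1 CPM in perivascular progenitors, at 13.7, 14.2 and 14.6 in ICAM1+ preadipocytes and at 5.85, 6.89 and 6.76 in perivascular preadipocytes. No 2 groups overlapped, and the order of the group means was that in which they are listed. Aldh1a3 was thus lower in perivascular than in inguinal cells, by -3.66 ± 0.136 (SE) in progenitors (adjusted p = 1.11e-08) and -1.13 ± 0.130 in preadipocytes (adjusted p = 4.28e-05). It also fell from progenitors to preadipocytes, by -2.99 ± 0.135 in perivascular fat (adjusted p = 9.51e-08) and -5.52 ± 0.149 in inguinal fat (adjusted p = 5.01e-10). The fall was smaller in perivascular fat (interaction 2.53 ± 0.180, adjusted p = 7.66e-06). The 7 listed markers of adipose progenitors took the same order of groups. They summed to 8100.1 to 9191 CPM in DPP4+ progenitors and 1658 to 1829 in perivascular progenitors. In preadipocytes they summed to 563 to 589 CPM in the ICAM1+ sort and 132 to 431 in perivascular fat. They include Dpp4, on which the DPP4+ progenitors were sorted, so their high sum in that group follows in part from the sort. Their part in the Aldh1a3 result was not tested. In bulk RNA, fewer cells with a transcript and less transcript per cell cannot be told apart.

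Aldh1a2 (chromosome 9, 71215789 to 71296243), the enzyme that makes most retinoic acid in the mesoderm of the embryo, took the opposite order in progenitors. It was at 6.92, 7.54 and 5.95 CPM in perivascular progenitors and at 0.357, 0.304 and 0.492 in DPP4+ progenitors, which is 4 to 6 counts a library. Perivascular preadipocytes held 2.61, 3.72 and 1.61 CPM and ICAM1+ preadipocytes 2.63, 2.59 and 2.26. The perivascular progenitors lay above all other libraries, the DPP4+ progenitors below them, and the 2 preadipocyte groups overlapped. The difference between depots was 4.13 ± 0.364 in progenitors (adjusted p = 4.8e-06) and 0.09 ± 0.291 in preadipocytes (adjusted p = 0.831). Aldh1a2 therefore fell from progenitors to preadipocytes in perivascular fat (-1.36 ± 0.286, adjusted p = 0.00409) and rose in inguinal fat (2.69 ± 0.370, adjusted p = 0.000245), with an interaction of -4.04 ± 0.469 (adjusted p = 0.0002). These 4 calls held under each alternative setting tried, the leaving out of any 1 library included. Mesothelial cells are a known source of Aldh1a2, and the summed mesothelial markers given above were likewise highest in perivascular and lowest in DPP4+ progenitors. The defining marker Msln was at 39.3 to 71.5 CPM in perivascular progenitors and 3.81 to 15.7 in perivascular preadipocytes, against 0.492 to 1.37 for DPP4+ progenitors and 0.155 to 0.490 for ICAM1+ preadipocytes. Of the 14 mesothelial markers, 11 were called higher and 0 lower in perivascular than in DPP4+ progenitors, and 8 higher and 4 lower between the preadipocytes. From progenitors to preadipocytes 1 was higher and 7 lower in perivascular fat, and 4 higher and 2 lower in inguinal fat. Of all tested genes, 13.0% were higher and 11.8% lower between the progenitors, and 23.5% and 21.4% between the preadipocytes. The stage shares were 16.8% and 16.1% in perivascular fat and 9.34% and 8.61% in inguinal fat. The part of mesothelial RNA in the Aldh1a2 result was not tested.

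Aldh1a1 (chromosome 19, 20492715 to 20643465), the isoform best known from adult tissues, gave no call in the 5 comparisons. It was at 17.1, 15.3 and 21.0 CPM in perivascular progenitors, 8.22, 6.38 and 11.7 in DPP4+ progenitors and 9.19, 10.5 and 5.91 in ICAM1+ preadipocytes. The perivascular preadipocytes spread from 24.8 CPM in library 1 to 7.63 and 3.75 in libraries 2 and 3, so this group overlapped every other. Perivascular progenitors lay above DPP4+ progenitors without overlap (1.02 ± 0.520, adjusted p = 0.177), and this was called where only these 2 groups were fitted (1.05, adjusted p = 0.022) or library totals were the scale (1.46, adjusted p = 0.036). Without perivascular preadipocyte library 1 the spread was smaller and 3 comparisons were called: 1.0 between the progenitors (adjusted p = 0.0292), -1.68 from perivascular progenitors to preadipocytes (adjusted p = 0.00292, from -0.56 with it) and an interaction of -1.64 (adjusted p = 0.0227). Of its 50-base exon windows, 3.06% also occur in Aldh1a7, a near copy, and reads from these could be split between the genes.

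Per kilobase of exon, which allows levels of different genes to be compared, the 3 dehydrogenases made up different mixtures in the 4 groups. In DPP4+ progenitors their sum was 143 ± 6.03 CPM per kilobase, of which Aldh1a3 was 98.7 ± 0.354%. In perivascular progenitors the sum was 17.8 ± 0.821 CPM per kilobase, with 62.8 ± 1.98% from Aldh1a3, 20.3 ± 3.32% from Aldh1a1 and 16.9 ± 2.12% from Aldh1a2. ICAM1+ preadipocytes held 5.90 ± 0.493 CPM per kilobase, with 52.4 ± 5.82% from Aldh1a3 and 18.7 ± 0.670% from Aldh1a2. Perivascular preadipocytes held 5.02 ± 2.27, and their Aldh1a1 share was 67.5% in library 1 against 33.0% and 25.9% in the other 2. The summed levels of the preadipocyte groups overlapped and both lay below those of either progenitor group.

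**Figure D2:**
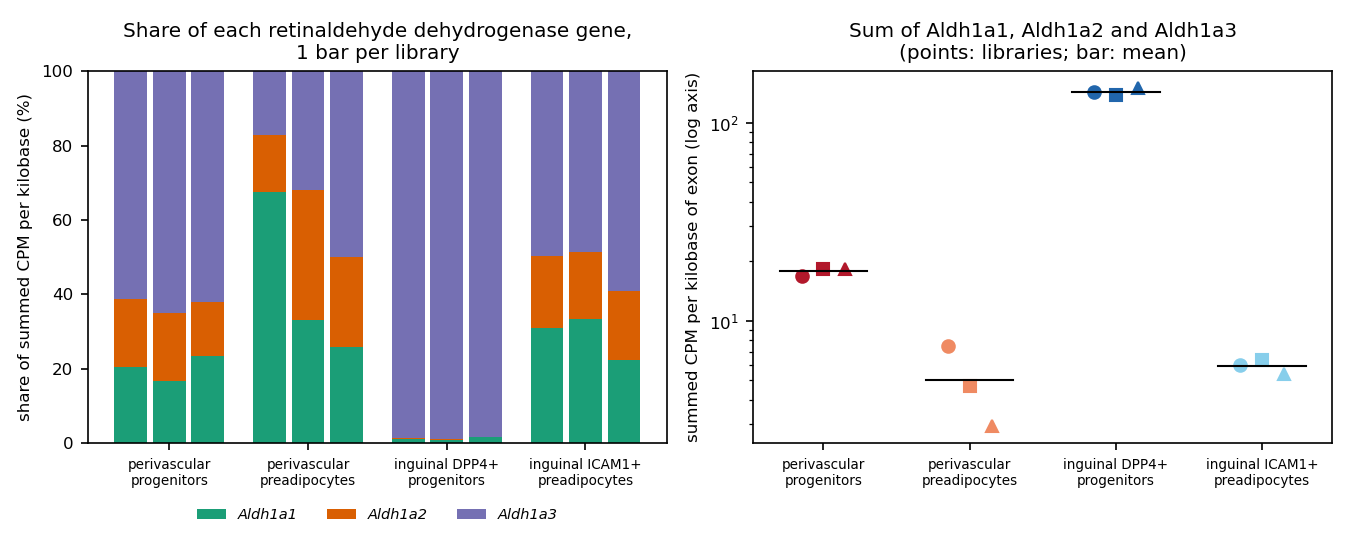
Left, the share (%) of Aldh1a1, Aldh1a2 and Aldh1a3 in their summed CPM per kilobase of exon, 1 bar per library; right, that sum per library on a log axis with the group mean as a bar. Aldh1a3 takes 98.3 to 99.0% in DPP4+ progenitors, and perivascular preadipocyte library 1 differs from the other 2 of its group through its Aldh1a1 share of 67.5%.

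Rbp4, the secreted carrier (chromosome 19, 38116629 to 38125281), was the most abundant of the 9 per kilobase in every group but the DPP4+ progenitors, where Aldh1a3 exceeded it. It was at 117, 118 and 138 CPM in perivascular preadipocytes, 80.3, 67.0 and 65.3 in ICAM1+ preadipocytes, 90.7, 59.8 and 52.2 in perivascular progenitors and 17.4, 23.8 and 25.6 in DPP4+ progenitors. The highest and the lowest group overlapped with no other, while ICAM1+ preadipocytes and perivascular progenitors did overlap. Rbp4 was higher in perivascular cells, by 1.60 ± 0.216 in progenitors (adjusted p = 0.000151) and 0.81 ± 0.209 in preadipocytes (adjusted p = 0.00752). It rose from progenitors to preadipocytes by 0.88 ± 0.209 in perivascular fat (adjusted p = 0.00764) and 1.67 ± 0.216 in inguinal fat (adjusted p = 0.00015). The 2 rises differed by -0.79 ± 0.296 (adjusted p = 0.0901), and by -1.01 (adjusted p = 0.0408) where library totals replaced the TMM scale. Adipocyte markers, 9 in all, summed to 4009 to 11419 CPM in perivascular preadipocytes and 942 to 1067 in perivascular progenitors, against 49.0 to 322 for DPP4+ progenitors and 183 to 268 for ICAM1+ preadipocytes, and their part in the Rbp4 level was not tested.

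Stra6, the receptor for RBP4 (chromosome 9, 58063788 to 58153996), was the scarcest of the 9 per kilobase in every group but the DPP4+ progenitors, where Cyp26b1 was. It was at 1.65, 1.67 and 1.30 CPM in perivascular progenitors and 0.737, 0.489 and 0.751 in perivascular preadipocytes, with no overlap. DPP4+ progenitors held 0.643, 1.21 and 1.07 CPM and ICAM1+ preadipocytes 0.551, 0.387 and 0.925, which did overlap. These are 9 to 32 counts a library. The fall in perivascular fat was called (-1.22 ± 0.391, adjusted p = 0.0312). The call was lost without any 1 of perivascular progenitor libraries 1, 2 and 3 or perivascular preadipocyte libraries 2 and 3 (-1.05 to -1.34, adjusted p = 0.0541 to 0.114). It was also lost with library totals (-1.06, adjusted p = 0.0554), with no filter on low counts (-1.23, adjusted p = 0.0531) and with the 3 libraries named above left out together (-1.32, adjusted p = 0.0602). Between depots the values were 0.66 ± 0.392 in progenitors (adjusted p = 0.249) and 0.10 ± 0.412 in preadipocytes (adjusted p = 0.865), and library totals gave a call in progenitors (1.09, adjusted p = 0.0427).

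Crabp1 (chromosome 9, 54764748 to 54773110) was called between the depots at both stages and gave no call between stages. It was at 9.65, 10.3 and 6.49 CPM in perivascular progenitors and 6.98, 10.4 and 13.2 in perivascular preadipocytes. In inguinal fat it was at 2.36, 1.90 and 2.71 in DPP4+ progenitors and 1.72, 2.36 and 1.85 in ICAM1+ preadipocytes. All 6 perivascular libraries lay above all 6 inguinal ones, and within each depot the groups overlapped. The depot difference was 1.92 ± 0.291 in progenitors (adjusted p = 0.000371) and 2.35 ± 0.288 in preadipocytes (adjusted p = 6.51e-05), and both were called under each setting tried. From progenitors to preadipocytes the values were 0.21 ± 0.266 in perivascular and -0.22 ± 0.300 in inguinal fat (adjusted p = 0.583 and 0.691).

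Crabp2, the carrier known to pass retinoic acid to its receptors (chromosome 3, 87948666 to 87953376), was called in no comparison. It was at 1.46 to 1.73 CPM in perivascular progenitors and 0.885 to 2.64 in perivascular preadipocytes, against 0.571 to 1.89 for DPP4+ progenitors and 1.18 to 2.14 for ICAM1+ preadipocytes. All 4 groups overlapped at 8 to 54 counts a library, and the standard errors of its 4 group differences were 0.461 to 0.493. Per kilobase, Crabp1 made up 90.0 ± 1.72% of the 2 carriers in perivascular progenitors and 91.1 ± 3.97% in perivascular preadipocytes, against 79.3 ± 8.51% for DPP4+ progenitors and 66.5 ± 8.37% for ICAM1+ preadipocytes.

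Cyp26b1, which degrades retinoic acid (chromosome 6, 84571414 to 84593908), was scarce. It was at 2.27, 3.51 and 2.0 CPM in perivascular progenitors and 1.18, 0.293 and 1.61 in perivascular preadipocytes, against 0.643, 0.835 and 0.246 for DPP4+ progenitors and 2.02, 1.16 and 1.64 for ICAM1+ preadipocytes. The progenitor groups did not overlap and the preadipocyte groups did. Cyp26b1 was higher in perivascular than in DPP4+ progenitors (2.15 ± 0.563, adjusted p = 0.0141), and stood at -0.64 ± 0.516 between the preadipocytes (adjusted p = 0.329). The stage differences of -1.34 ± 0.509 in perivascular fat (adjusted p = 0.0607) and 1.45 ± 0.572 in inguinal fat (adjusted p = 0.106) each missed the threshold, and the interaction passed it (-2.79 ± 0.765, adjusted p = 0.0293). The progenitor call was lost without DPP4+ library 3 (1.81, adjusted p = 0.0581), which had 3 counts, or without perivascular progenitor library 2 (1.84, adjusted p = 0.0516). The interaction was lost without any 1 of DPP4+ libraries 1 and 3, ICAM1+ libraries 1 and 3 and perivascular progenitor library 2 (adjusted p = 0.0595 to 0.0718), and with the shared pools as a block (-2.81, adjusted p = 0.0535). DESeq2 called the perivascular stage difference of Cyp26b1 (-1.36, adjusted p = 0.0317), as did edgeR without perivascular preadipocyte library 3 (-1.83, adjusted p = 0.0423) and with the 3 libraries named above left out together (-1.61, adjusted p = 0.035). The inguinal difference was called with only the 2 groups fitted (1.43, adjusted p = 0.0344), on the scale of library totals (1.81, adjusted p = 0.0344) and without perivascular preadipocyte library 2 (1.45, adjusted p = 0.0449).

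Rarb (chromosome 14, 16430839 to 16819156), the receptor gene whose repeat is printed above, was higher in perivascular fat at both stages. It was at 11.6, 16.6 and 12.6 CPM in perivascular progenitors and 11.1, 7.68 and 6.38 in perivascular preadipocytes, against 4.36, 3.80 and 3.85 for DPP4+ progenitors and 2.94, 2.13 and 1.54 for ICAM1+ preadipocytes. No 2 neighbours in that order overlapped. The depot difference was 1.76 ± 0.277 in progenitors (adjusted p = 0.000502) and 1.93 ± 0.282 in preadipocytes (adjusted p = 0.000207). From progenitors to preadipocytes the values were -0.70 ± 0.263 in perivascular (adjusted p = 0.0581) and -0.87 ± 0.287 in inguinal fat (adjusted p = 0.0545). With the shared pools as a block both passed the threshold (-0.74, adjusted p = 0.0467, and -0.89, adjusted p = 0.0465). DESeq2 called both as well (-0.72, adjusted p = 0.0304, and -0.90, adjusted p = 0.0246). The perivascular difference was also called without perivascular preadipocyte library 1 (-0.98, adjusted p = 0.0117), without perivascular progenitor library 1 (-0.85, adjusted p = 0.0283) and with the 3 libraries named above left out together (-1.12, adjusted p = 0.0023). The inguinal one was called in the same 3 fits, at -0.87, -0.89 and -0.93 (adjusted p = 0.0304, 0.0437 and 0.0232), with only the 2 groups fitted (-0.88, adjusted p = 0.0325) and without ICAM1+ library 1 (-1.11, adjusted p = 0.0365). Of the Rarb exon length, 38.4% overlaps exons of Top2b and Gm48162 on the other strand. The sources used here do not say whether the counting used strand, and without it reads from these genes cannot be told apart. Top2b, a DNA topoisomerase, was at 64.5 ± 36.8, 84.8 ± 9.98, 47.1 ± 3.11 and 54.5 ± 0.225 CPM in the order of the groups above, with depot differences of 0.45 ± 0.286 in progenitors and 0.64 ± 0.285 in preadipocytes (adjusted p = 0.283 and 0.0853).

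Among the 3 retinoic acid receptors, Rarb was the minor one per kilobase of whole exon length in every group. Its level depends on how reads in the 38.4% of its exon length shared with other genes were counted, which is not known. Its share was 12.8 ± 1.55% in perivascular progenitors and 16.8 ± 2.80% in perivascular preadipocytes, against 3.92 ± 0.712% for DPP4+ progenitors and 2.12 ± 0.707% for ICAM1+ preadipocytes. The receptors summed to 9.36 ± 1.13 CPM per kilobase in perivascular preadipocytes and to 19.7 ± 3.08, 19.8 ± 0.473 and 20.4 ± 4.81 in DPP4+ progenitors, ICAM1+ preadipocytes and perivascular progenitors. Rarg fell from perivascular progenitors (31.5, 57.7 and 52.6 CPM) to perivascular preadipocytes (14.3, 11.0 and 8.69 CPM; -2.06 ± 0.247, adjusted p = 0.000193). Rara rose from DPP4+ progenitors (21.3, 25.8 and 30.6 CPM) to ICAM1+ preadipocytes (49.4, 51.9 and 45.1 CPM; 0.92 ± 0.171, adjusted p = 0.00229).

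**Figure D3:**
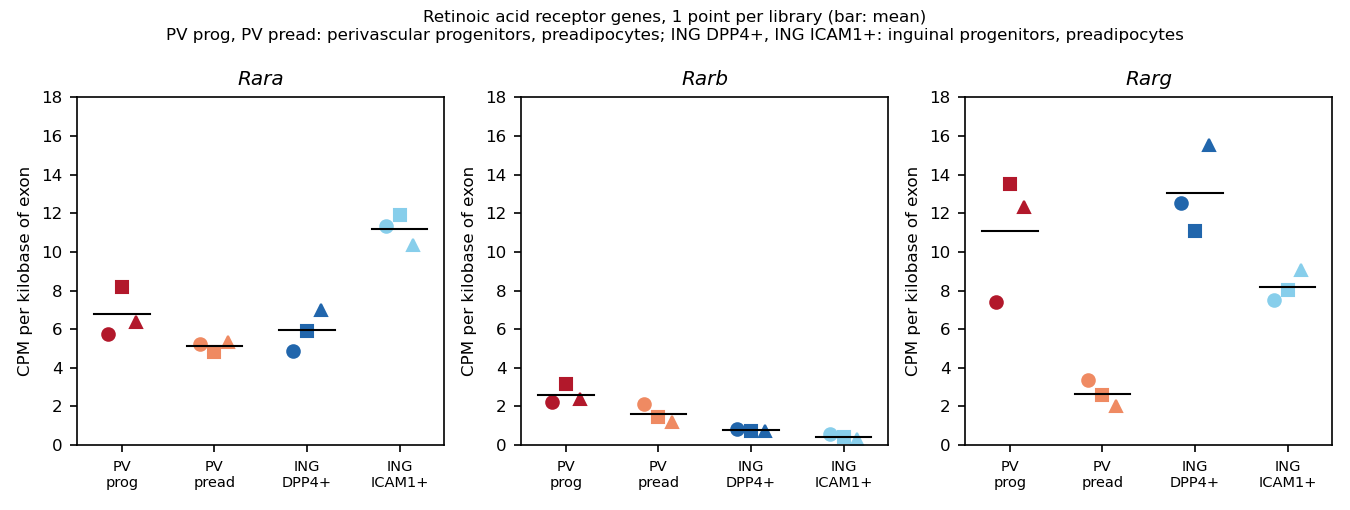
CPM per kilobase of exon of the retinoic acid receptor genes, 1 point per library, with the group mean as a bar and the same axis from 0 in each panel. Rarb lies at 3.15 CPM per kilobase or less in all 12 libraries and is higher in the 6 perivascular ones, while Rarg is lowest in perivascular preadipocytes.

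Counted together, 6 of the 9 genes were called between the progenitors, 5 higher in perivascular cells and 1 lower (Aldh1a3), where 24.9% of all tested genes were called, 13.0% higher and 11.8% lower. In 8 of the 9 the progenitor groups did not overlap, against 42.3% of all genes. Between the preadipocytes 4 were called, Rbp4, Crabp1 and Rarb higher and Aldh1a3 lower, against 44.9% of all genes (23.5% higher, 21.4% lower), and 4 did not overlap against 57.2%. From perivascular progenitors to preadipocytes 4 were called, Rbp4 higher and Aldh1a2, Aldh1a3 and Stra6 lower, against 32.9% (16.8% and 16.1%), and 6 did not overlap against 40.8%. From DPP4+ progenitors to ICAM1+ preadipocytes 3 were called, Aldh1a2 and Rbp4 higher and Aldh1a3 lower, against 17.9% (9.34% and 8.61%), and 5 did not overlap against 43.8%. The interaction was called for 3, Aldh1a3 (higher) and Aldh1a2 and Cyp26b1 (lower), against 15.0% of all genes (6.37% and 8.66%). The median log2 difference of the 9 was 1.60 between the progenitors, where that of all genes was 0.05, and 0.10 between the preadipocytes, where it was 0.04. For the stage differences it was -0.70 in perivascular and -0.04 in inguinal fat, where the medians of all genes were -0.05 and 0.02. The share of members called was close to the background between the preadipocytes. In the perivascular stage comparison 4 of 9 stood little above 32.9%, and the Stra6 call among them was lost in many settings. With single libraries left out, 3 to 6 members were called there. In the other comparisons the share was above the background. The 9 genes were chosen with earlier results of these data known, so these shares are a description and not a test.

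**Figure D4:**
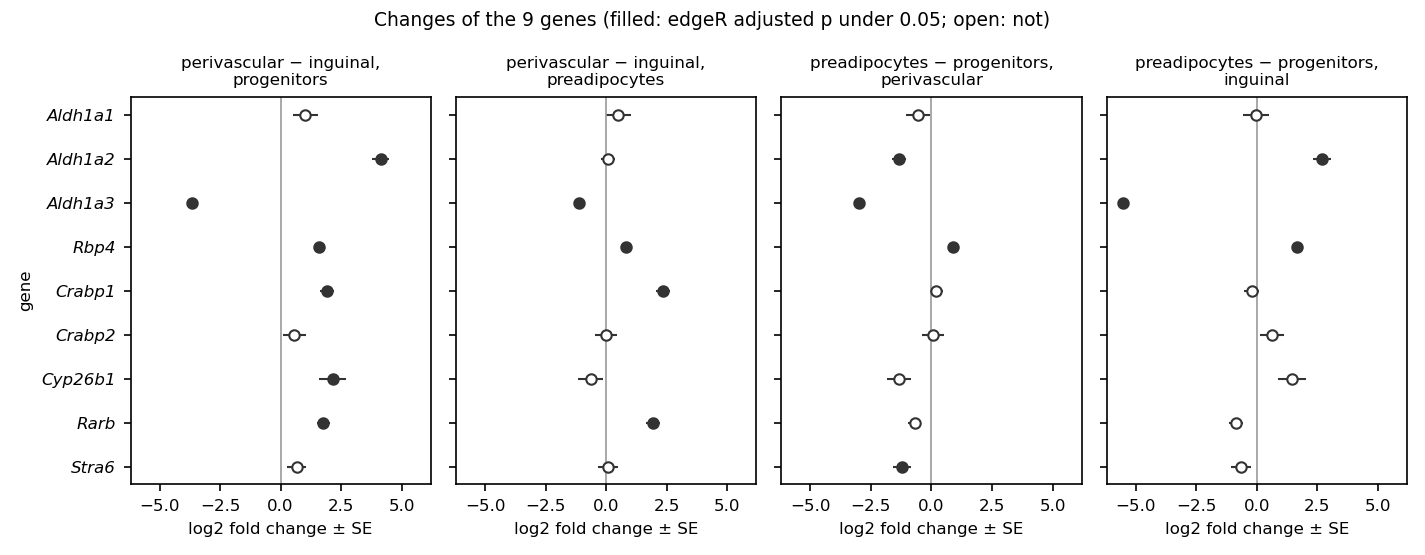
Log2 fold change ± SE of the 9 genes in the 4 comparisons between groups (edgeR, 3 libraries a group); filled points passed an adjusted p of 0.05. Aldh1a2 and Aldh1a3 stand at 4.13 and -3.66 between the progenitors, and Aldh1a3 is at the far left again in both stage comparisons.

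Beyond the 9, a list of 58 other retinoid genes was followed, of which 55 were matched by symbol and 46 had enough counts to test. Between the progenitors 22 of 46 were called (14 higher in perivascular cells, 8 lower), against 24.9% of all tested genes, and between the preadipocytes 26 (15 higher, 11 lower), against 44.9%. From perivascular progenitors to preadipocytes 25 were called (11 higher, 14 lower), against 32.9%, and in the inguinal stage comparison 20 (12 higher, 8 lower), against 17.9%. The interaction was called for 17, of which 13 were lower, against 15.0%. The same shares stand beside the counts by role, which rest on few genes each. Their median log2 values, 0.23, 0.15, -0.15, -0.01 and -0.10 in that order, lay nearer to those of all genes than the medians of the 9 did between the progenitors.

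Among 9 tested genes of uptake, transport and storage, 7 were called between the progenitors, 3 higher and 4 lower, against 24.9% of all genes. Rbp7, an intracellular retinoid carrier found in endothelium and fat, was lower in perivascular than in DPP4+ progenitors, at 0.929 to 1.32 against 13.6 to 20.8 CPM (-4.06 ± 0.421, adjusted p = 1.83e-05), and lower between the preadipocytes too (-2.09 ± 0.376, adjusted p = 0.000836). The 9 endothelial markers summed to 187 to 258 CPM in perivascular against 758 to 958 in DPP4+ progenitors, with 4 called lower and 0 higher. In the preadipocytes they summed to 58.5 to 96.6 against 162 to 192 CPM, with 3 called lower and 0 higher. Of all genes, 11.8% were lower between the progenitors and 21.4% between the preadipocytes. In the perivascular stage comparison 3 endothelial markers were lower and 0 higher (16.1% of all genes were lower). Rbp7 was called higher there, at 0.83 to 1.84 with each library left out in turn, and some of these fits lost the call. In the inguinal one 1 marker was lower and 0 higher (8.61% of all genes were lower), and Rbp7 gave no call. The part of endothelial RNA in the Rbp7 result was not tested. Dgat1, which can esterify retinol beside its main work on triglycerides, was highest in perivascular preadipocytes at 46.0, 77.4 and 66.8 CPM (1.81 ± 0.233 above ICAM1+ preadipocytes, adjusted p = 8.98e-05).

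Of 14 other tested dehydrogenase genes of retinol metabolism, 5 were called between the progenitors (4 higher, 1 lower; 24.9% of all genes), 9 between the preadipocytes (8 higher, 1 lower; 44.9%), 7 in the perivascular stage comparison (5 higher, 2 lower; 32.9%) and 4 in the inguinal one (2 of each; 17.9%). Adh1, an alcohol dehydrogenase that oxidises retinol, was at 12.2, 14.7 and 15.3 CPM in DPP4+ progenitors and at 102 to 193 CPM in the other 9 libraries, with a difference of 3.10 ± 0.194 between the progenitors (adjusted p = 3.75e-07). Adh7, which also oxidises retinol, was the reverse, at 23.6, 18.9 and 18.1 CPM in DPP4+ progenitors, 6.0 to 6.79 in ICAM1+ preadipocytes and 1.32 or less in the 6 perivascular libraries. Its depot differences were -4.38 ± 0.345 and -3.89 ± 0.366 (adjusted p = 1.98e-06 and 1e-05). Rdh12 was higher in perivascular cells at both stages, by 2.15 ± 0.450 and 3.96 ± 0.448 (adjusted p = 0.00365 and 3.82e-05). In the inguinal stage comparison the retinol dehydrogenase gene Dhrs9 fell (-2.50, adjusted p = 0.00357), and Lpl, a lipase that can free retinol from esters, rose (1.91, adjusted p = 2.36e-05).

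Of the 5 other receptors, Rxrg was called in all 4 group comparisons. It was at 13.1, 37.9 and 47.7 CPM in perivascular preadipocytes, 4.57 to 5.58 in ICAM1+ preadipocytes, 3.87 to 5.35 in perivascular progenitors and 0.429 to 0.987 in DPP4+ progenitors. Its depot differences were 2.72 ± 0.483 and 2.71 ± 0.395 and its stage differences 2.90 ± 0.400 and 2.91 ± 0.481 (adjusted p = 0.000208 to 0.00121). The 9 adipocyte markers summed to 4009, 10241 and 11419 CPM in perivascular preadipocyte libraries 1, 2 and 3, likewise lowest in library 1. Their part in the Rxrg and Dgat1 results was not tested. Rxra was called in none of the 5 comparisons, at group means of 21.3 to 30.4 CPM. Rxrb was higher in perivascular than in ICAM1+ preadipocytes (1.46 ± 0.358, adjusted p = 0.00562). Rara and Rarg were lower there (-1.13 ± 0.171 and -1.63 ± 0.244, adjusted p = 0.000274 and 0.00025).

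Of 9 tested genes known as targets of retinoic acid, 6 were called between the progenitors, 5 higher in perivascular cells and 1 lower, where 13.0% of all genes were higher and 11.8% lower. The lower one, Tbx5, a forelimb and heart transcription factor, was at 1.81, 1.96 and 1.14 CPM in perivascular and 13.7, 10.2 and 10.8 in DPP4+ progenitors (-2.82 ± 0.309, adjusted p = 2.95e-05). Cd38, an ectoenzyme that degrades NAD, was higher in perivascular progenitors (1.01 ± 0.263, adjusted p = 0.0133) but lost this call without DPP4+ library 1 (0.94, adjusted p = 0.0556) or without library 3 (0.81, adjusted p = 0.0554). Cd38 was lower in perivascular than in ICAM1+ preadipocytes (-1.35 ± 0.258, adjusted p = 0.00124). Between the preadipocytes 4 of the 9 targets were called, 1 higher and 3 lower, near the 44.9% of all genes. In the perivascular stage comparison 4 were called, all lower, where 32.9% of all genes were called and 16.1% were lower. In the inguinal stage comparison 3 were higher and 1 lower, against 17.9%. Of 7 receptor cofactors 2 were called between the progenitors, both lower, against 24.9%, and of 2 tested genes of clearance and carriers 1 was called there, higher. That gene was Fabp5, a fatty acid and retinoic acid carrier. Its call was lost with the shared pools as a block (0.96, adjusted p = 0.0633). With each library left out in turn its value was 0.82 to 1.04, and most of these fits lost the call. Fabp5 was also higher in perivascular than in ICAM1+ preadipocytes (1.72 ± 0.323, adjusted p = 0.0011).

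**Figure D5:**
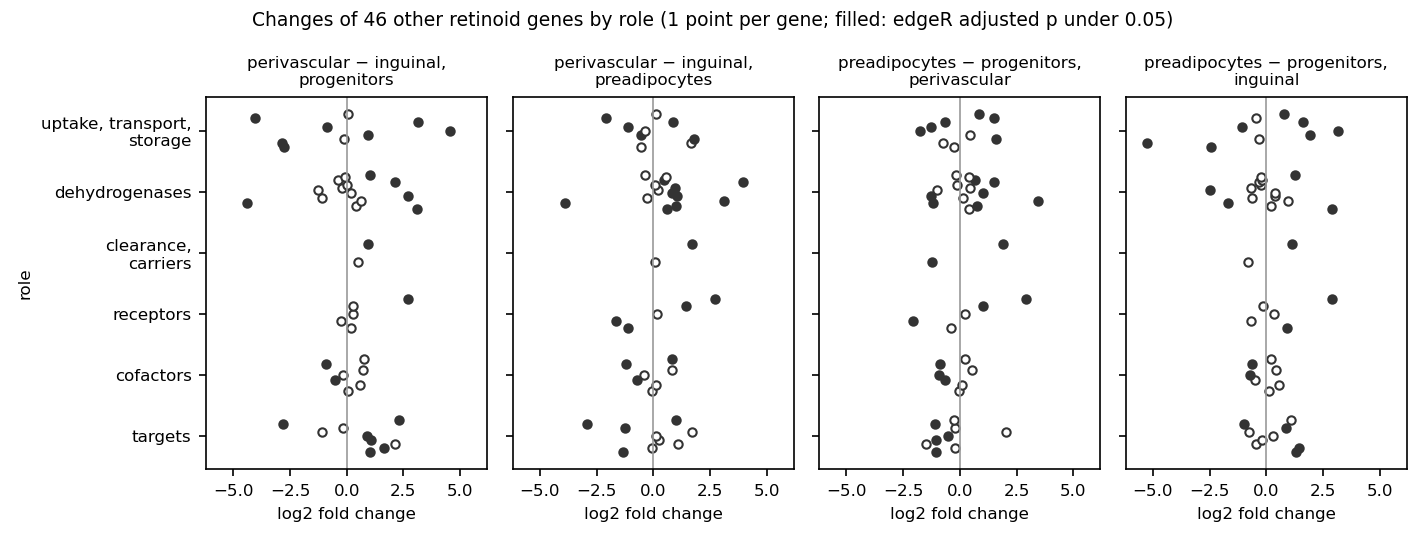
Log2 fold changes of the 46 other tested retinoid genes by role in the 4 comparisons between groups, 1 point per gene; filled points passed an edgeR adjusted p of 0.05. Points lie on both sides of 0 in each role with more than 2 genes, and 22, 26, 25 and 20 are filled from left to right.

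The genes most like each member over the 12 libraries were found as those with the smallest root mean square difference in centred log2 CPM, among 11169 genes whose mean reached 5 CPM in some group. Nearest to Aldh1a2 were Enpp2 (0.347) and Cyp1b1 (0.363). Nearest to Aldh1a3 were Sbsn (0.380) and Adgrg2 (0.472), and Sbsn too was highest in DPP4+ progenitors, at a mean of 33.6 CPM against 2.03 or less elsewhere. Nearest to Rarb were Piezo2 (0.263) and Fras1 (0.292), and to Crabp1 Hoxa7 (0.329) and Nipsnap1 (0.338). Nearest to Rbp4 were Mybl2 (0.228) and Siva1 (0.240), to Aldh1a1 Elovl4 (0.347) and Armh4 (0.355), and to Stra6 Zfp827 (0.306) and Zfp455 (0.320). Nearest to Crabp2 were Actr3b (0.355) and Micu3 (0.412), and to Cyp26b1 Pik3cd (0.533) and Cxcl16 (0.534). These libraries share the group structure, so likeness is a description of the 12 values.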

How the data were processed

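RNA of 12 libraries, 3 from each of 4 sorted cell populations, was sequenced after a poly(A)-selecting ultra-low-input preparation, per the labels. Reads were aligned with STAR 2.5.2a to mm10, and DESeq2 1.26.0 was used, per the submitters' processing notes. The sources used here do not name the counting tool, its annotation or its strand setting. The authors' deposited table of raw counts was used, and their normalised tables were not. Its 12 sample columns were matched by name.

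The counts were fitted with edgeR 4.0.16 under R 4.3.3 (filterByExpr with a minimum count of 10, TMM, quasi-likelihood with 1 mean for each group over the 12 libraries, two-sided, Benjamini-Hochberg over 18855 genes, call at 0.05). The standard error is the fold change divided by the square root of F and is approximate. The fit was tried on simulated data with few changed genes, balanced in direction, in 1 group. Those data differ from these, so the trial did not test the scaling between libraries. Exon lengths and coordinates are those of GENCODE M21, and promoters those of RefSeq GRCm38.p6. The 9 genes and the gene lists were chosen with earlier results of these data known. Named others are the receptors and, in each comparison, up to 4 called genes with the largest change at a mean of 5 CPM or more. One gene that this rule names is not reported here. Libraries are pools from the same mice where their numbers match, per the labels, so the numbers pair them. Over 18 such pairs the deviations from the group means correlated at -0.213 to 0.153. P-values measure the spread between pools. Counts without molecular identifiers are not independent molecules.

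The alternatives were DESeq2 1.42.0, RLE factors, library totals, a minimum count of 30 or none, a block for the pool, only the groups compared, each library left out, and, chosen after the data were seen, 3 libraries left out together.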

Additional observations from a re-analysis of the deposited data

Results flagged for a closer look

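In 10 named genes the change from progenitors to preadipocytes differed between perivascular and inguinal fat by edgeR's interaction term, given here as perivascular minus inguinal on the log2 scale. Of the 9 retinoid genes these were Aldh1a2 (-4.04), Aldh1a3 (2.53) and Cyp26b1 (-2.79, adjusted p = 0.0293). Aldh1a2 went opposite ways, falling in perivascular fat in all 3 libraries against all 3 and rising in inguinal fat, and Aldh1a3 fell in both. Of the other retinoid genes named, the interaction was -2.50 for Adh1, -2.36 for Cd38, -1.44 for Lpl, -1.39 for Rarg and -1.32 for Rara. It was 1.97 for Rbp7 and 1.92 for Dgat1. Rbp7 lost its call without any 1 of 7 libraries, and its adjusted p was 0.0295 with all 12. Cyp26b1 lost its call without any 1 of several libraries (adjusted p = 0.0595 to 0.0718) and with the pools as a block (adjusted p = 0.0535).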

How the results depend on the processing

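Each call of Aldh1a2, Aldh1a3, Crabp1 and Rbp4 held under every setting tried. Over the 9 genes and all settings, 815 values kept direction and side of the threshold, 32 gained a call, 16 lost one and 23 changed sign. The 23 were of values without a call. With library totals these were Aldh1a1 (0.35) and Crabp1 (0.16) in the inguinal stage comparison, Crabp2 between the preadipocytes (0.23) and the Rarb interaction (-0.049). With 3 libraries left out they were Aldh1a1 (-0.63), Crabp2 (0.25) and Stra6 (-0.044) between the preadipocytes and the Rarb interaction (-0.18). With each library left out in turn, sign changes lay within ranges of -0.22 to 0.23 (Aldh1a1, inguinal stage), -0.64 to 0.88 (Aldh1a1, preadipocytes), -0.23 to 0.29 (Aldh1a2, preadipocytes), -0.047 to 0.39 (Crabp1, perivascular stage), -0.52 to 0.24 (Crabp2, preadipocytes), -0.48 to 0.32 (Crabp2, perivascular stage), -0.11 to 0.41 (Rarb interaction) and -0.18 to 0.50 (Stra6, preadipocytes).

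With the pools as a replicate block, 6, 4, 5, 4 and 2 of the 9 genes were called in the progenitor, preadipocyte, perivascular stage, inguinal stage and interaction comparisons, against 6, 4, 4, 3 and 3 without, and 4197, 7885, 5486, 2988 and 2158 of all genes. The block changed no call of the 9 other than those given for Cyp26b1 and Rarb.

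Counts moved by more than 1.5 times as follows, and the cause was not tested. With only the groups compared, the inguinal stage gave 5 of the 9 genes (3 in the joint fit) and 5757 of all (3384), and the perivascular stage 15 of the other retinoid genes (25) and 2825 of all (6198). With library totals the progenitors gave 7548 (4687) and the inguinal stage 5276. That scale moved the median of all genes to 0.48, 0.27, 0.12, 0.40 and -0.21 and the higher share of calls to 83.7%, 66.5%, 66.3%, 82.6% and 23.3%, from 52.5%, 52.2%, 51.1%, 52.0% and 42.4%. With 3 libraries left out the perivascular stage gave 9893, and the interaction 7783 (2834) and 27 of the other retinoid genes (17). Single libraries left out gave 3916 to 8000 and 1666 to 5231 of all genes and 11 to 22 of the other retinoid genes there. Depth limits Stra6, Crabp2 and Cyp26b1, at 3 to 61 counts a library. It also limits the Aldh1a2 differences that involve DPP4+ progenitors, where Aldh1a2 was at a mean of 0.384 CPM.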
